A study of Mus musculus with 4 samples.

Results

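Genes of DNA replication and of the G1/S transition were followed in endothelial cells sorted from the heart of mice on a C57BL/6 background. The set holds 51 genes taken by symbol, and all 51 have a row among the 24346 genes of the deposited FPKM table (fragment numbers scaled by gene length and by depth). They were grouped by role into licensing (16), polymerases and clamp (12), nucleotide supply (4), E2F and cyclins (12) and chromatin and fork genes (7). The study labels 2 libraries as ECp53KO, read here as loss of p53 in the endothelium because the series title speaks of endothelial p53, and 2 as wild type (Ctrl). Every library is labelled young and as taken straight from the tissue without culture. They are called ECp53KO_170, ECp53KO_172, Ctrl_178 and Ctrl_182 after the numbers in their titles. The age in weeks, the driver of the deletion, the deleted exons and whether a library came from 1 animal or from a pool do not appear in the labels used here, so p-values measure only the spread between these libraries, which may be technical.

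Cells commit to division in G1, when D-type cyclins with Cdk4 or Cdk6 and then E-type cyclins with Cdk2 phosphorylate the retinoblastoma protein and free the E2F transcription factors. E2F factors drive the genes that supply nucleotides and build the replication machinery. Origins are licensed when ORC, Cdc6 and Cdt1 load the Mcm helicase on DNA, and Pcna, the sliding clamp, then holds the polymerases on the template. Most endothelial cells of an adult heart rest, and p53 is known to restrain the E2F programme through the Cdk inhibitor p21, encoded by Cdkn1a.

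Trp53, the targeted gene, stood at 4.41 and 2.45 against 52.1 and 28.8 FPKM. Wherever a pair of values is set against a pair, the first pair is ECp53KO_170 then ECp53KO_172 and the other is Ctrl_178 then Ctrl_182. Cdkn1a stood at 353 and 387 against 528 and 668 FPKM. Cdh5, the endothelial cadherin, lay between 958 and 1100 FPKM in the 4 libraries, and the 8 endothelial markers summed to 4490 to 5360 FPKM. Depth, estimated from the smallest steps in the values, was about 9800000 to 11400000 fragments in 3 libraries and 22500000 in Ctrl_182, so the low values of Ctrl_182 are the most precise. Xist was at 23.0 and 23.9 FPKM in 1 library of each group, ECp53KO_172 and Ctrl_182, and under 1 FPKM in the others.

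No gene of the set passed the test across all genes. The clamp Pcna, the helicase subunits Mcm3, Mcm4, Mcm6 and Mcm7 and the large ribonucleotide reductase subunit Rrm1 overlapped between the groups. The thymidine kinase Tk1, the small reductase subunit Rrm2, the transcription factor E2f1, the kinase Cdk2 and the histone chaperone subunits Chaf1a and Chaf1b lay below both controls in each ECp53KO library, with control means 1.45 to 3.29 times as high. Rfc4, a subunit of the clamp loader, went the other way, with an ECp53KO mean 2.03 times that of Ctrl.

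Of the 51 genes, 41 averaged 1 FPKM or more across the libraries and were tested by limma on log2(FPKM + 1) together with all 11332 such genes. After Benjamini-Hochberg adjustment 0 of the 41 passed 0.05, where 13 of all tested genes did (0.115%). At an unadjusted limma p under 0.05, 5 were lower (12.2%, against 2.82% of all tested genes) and 1 was higher (2.44%, against 1.97%). In both ECp53KO libraries 11 lay below either control (26.8%, against 16.8% of all tested genes) and 1 above (2.44%, against 19.1%). The median difference, ECp53KO minus Ctrl on the log2(FPKM + 1) scale, was -0.11 over the 41 genes and 0.01 over all tested genes. Of the 41 differences, 23 were negative and 18 positive. Rescaled to TPM, so that each library sums to the same total, the 2 medians were -0.23 and -0.10, and 30 of the 41 differences were negative, as were 7335 of all 11332 against 5475 before. The log2(FPKM + 1) scale understates the change of low genes. With a library left out, 18 of the 41 differences were negative without Ctrl_178, 19 without ECp53KO_172, 31 without Ctrl_182 and 32 without ECp53KO_170. Over all 11332 tested genes 5274 to 5728 were negative in these fits. Without Ctrl_178 the median was 0.04 over the 41 genes and 0.01 over all tested genes.

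The 10 genes under the 1 FPKM limit were Orc1, Cdc6, Mcm10, Gins1, Pole, Ccne1, Ccne2, E2f2, Clspn and Dtl, with means of 0.11 to 0.919 FPKM; the lowest mean among the tested genes was 1.57 FPKM. With these included, 17 of the 51 lay below both controls in both ECp53KO libraries (33.3%, against 17.2% of the 16809 genes with any value above 0) and 1 above (1.96%, against 16.3%). Each of the 10 was highest in Ctrl_178.

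**Figure D1:**
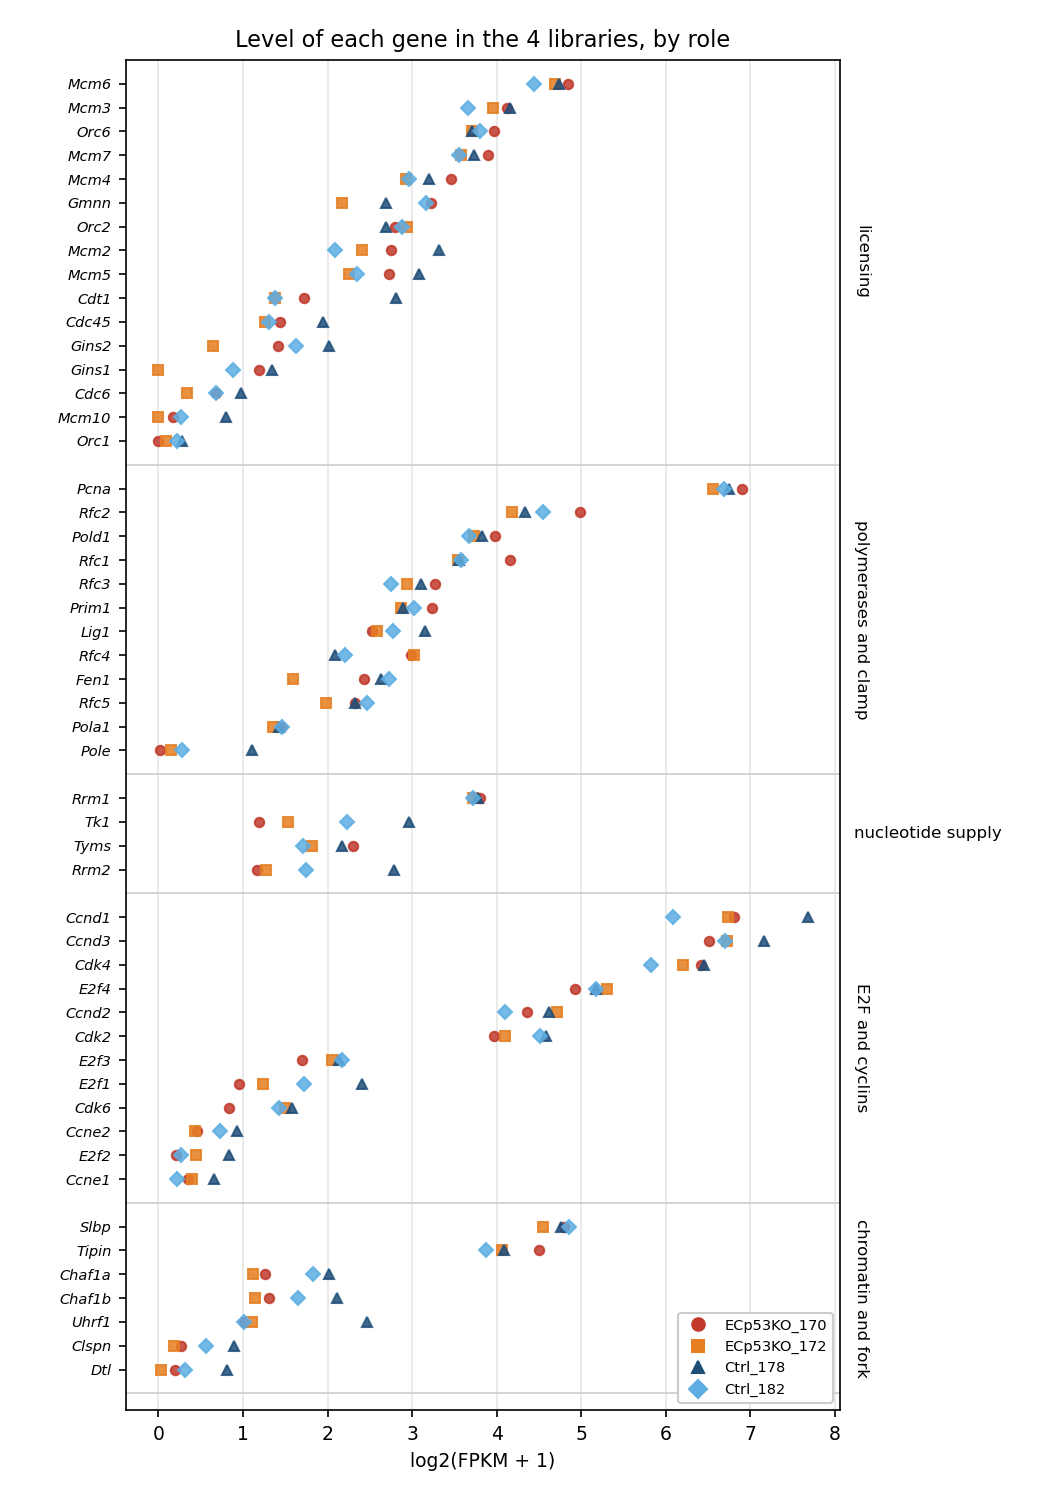
Level of each of the 51 genes as log2(FPKM + 1) on the horizontal axis, by role and ordered by mean; each symbol is 1 library. Genes near the bottom of each role, such as Mcm10, Pole, E2f1, Clspn and Dtl, had Ctrl_178 (dark triangles) on the right, while the symbols of Orc6, Pcna and Rrm1 lay close together.

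Levels spanned a wide range. Means over the 4 libraries were above 50 FPKM for 4 genes, Pcna, Ccnd1, Ccnd3 and Cdk4, at least 10 FPKM for 17, and 1 to under 10 FPKM for 24. The difference between the groups went with the level, with a Spearman's rho of 0.57 over the 41 tested genes and 0.17 over all tested genes. These are correlations across genes, which share the same 4 libraries. A split at 10 FPKM, chosen after the values were seen, placed 10 of the 11 lower genes among the 24 tested genes under it (41.7%, against 21.2% of all tested genes under 10 FPKM) and 1, Cdk2, among the 17 above (5.88%, against 13.5%).

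**Figure D2:**
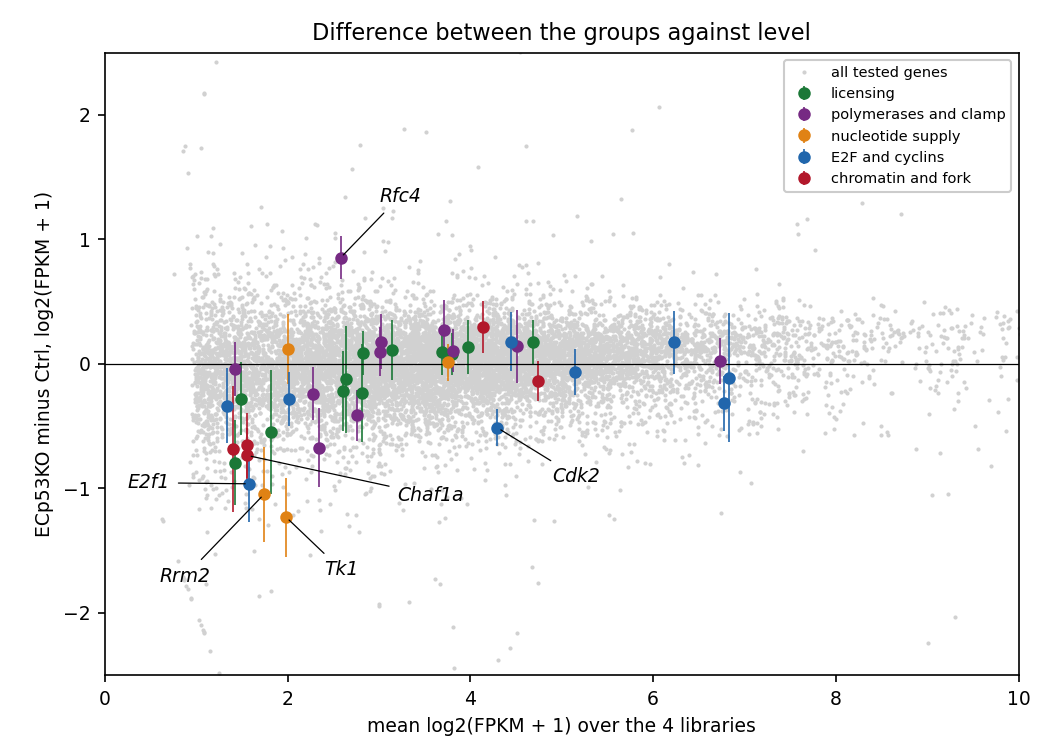
Difference between the groups, ECp53KO minus Ctrl, against the mean level, both on the log2(FPKM + 1) scale; coloured points are the 41 tested genes by role with their standard errors, and grey points are all tested genes, of which 203 lie outside the axes. The lower genes crowd at the left, with Tk1 at -1.23 and Rrm2 at -1.05, Cdk2 stands alone to the right at -0.51, and Rfc4 is the high point at 0.85.

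Promoter sequence was set beside these values because E2F factors bind the promoters of many replication genes. RefSeq promoter windows (GRCm38.p6, 250 bases before to 50 after a start) were found for 40 of the 51 genes. Each was searched on both strands for 4 words of 8 bases that spell the E2F consensus, TTTGGCGC, TTTCCCGC, TTTCGCGC and TTTGCCGC, which can overlap one another. At least 1 word stood in a window of 17 of the 40 genes (42.5%), against 704 of 27025 genes with a window (2.6%) and 407 of 8508 tested genes (4.78%). Of the genes that lay lower in ECp53KO without overlap, 6 of 14 held a word (42.9%), and of the others 11 of 26 (42.3%). Shares by role were 7 of 12 for licensing, 4 of 10 for polymerases and clamp, 0 of 4 for nucleotide supply, 3 of 8 for E2F and cyclins and 3 of 6 for chromatin and fork genes. For 7 of the 40, E2f1 among them, the window's start lay over 100 bases from the gene's annotated end. Genes with no window were Ccnd1, Ccnd2, Ccne2, E2f4, Gins1, Gins2, Gmnn, Mcm4, Pole, Rfc2 and Tipin.

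The windows below show both kinds of gene, each 5′ to 3′ on the strand of the gene with the words in capitals. Mcm6 (chr1:128359656-128359955, minus strand) and Rfc3 (chr5:151651159-151651458, minus strand) carry words and overlapped between the groups. Cdk2 (chr10:128705002-128705301, minus strand) and Clspn (chr4:126556730-126557029, plus strand) carry a word and lay lower in ECp53KO. Tk1 (chr11:117825965-117826264, minus strand) and Rrm2 (chr12:24708004-24708303, plus strand) also lay lower and hold none of the words, which says only that these letters are not in these windows. In Mcm6 the leftmost run of capitals is 2 overlapping words.
Mcm6: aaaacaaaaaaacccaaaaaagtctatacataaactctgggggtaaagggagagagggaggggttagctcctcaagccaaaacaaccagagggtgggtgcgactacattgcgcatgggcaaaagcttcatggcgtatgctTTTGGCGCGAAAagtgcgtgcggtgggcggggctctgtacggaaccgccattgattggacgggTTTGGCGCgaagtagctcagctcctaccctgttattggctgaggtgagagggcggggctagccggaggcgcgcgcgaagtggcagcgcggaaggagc
Rfc3: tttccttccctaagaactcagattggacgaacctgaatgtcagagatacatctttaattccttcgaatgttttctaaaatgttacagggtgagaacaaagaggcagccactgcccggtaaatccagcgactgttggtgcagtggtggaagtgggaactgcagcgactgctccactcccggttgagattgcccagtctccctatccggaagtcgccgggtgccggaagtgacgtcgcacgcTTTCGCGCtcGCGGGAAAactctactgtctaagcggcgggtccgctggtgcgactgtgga
Cdk2: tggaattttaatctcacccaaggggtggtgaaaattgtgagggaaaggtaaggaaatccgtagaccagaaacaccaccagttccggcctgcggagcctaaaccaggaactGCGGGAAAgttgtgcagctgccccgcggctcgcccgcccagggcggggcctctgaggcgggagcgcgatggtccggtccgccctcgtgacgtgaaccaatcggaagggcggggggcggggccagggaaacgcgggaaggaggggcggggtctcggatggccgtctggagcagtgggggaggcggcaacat
Clspn: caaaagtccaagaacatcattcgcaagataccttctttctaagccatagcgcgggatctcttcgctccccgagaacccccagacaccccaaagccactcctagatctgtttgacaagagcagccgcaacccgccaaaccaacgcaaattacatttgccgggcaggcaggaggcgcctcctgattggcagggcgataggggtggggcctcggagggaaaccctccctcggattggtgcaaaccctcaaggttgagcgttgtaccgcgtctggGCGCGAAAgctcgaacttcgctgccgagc
Tk1: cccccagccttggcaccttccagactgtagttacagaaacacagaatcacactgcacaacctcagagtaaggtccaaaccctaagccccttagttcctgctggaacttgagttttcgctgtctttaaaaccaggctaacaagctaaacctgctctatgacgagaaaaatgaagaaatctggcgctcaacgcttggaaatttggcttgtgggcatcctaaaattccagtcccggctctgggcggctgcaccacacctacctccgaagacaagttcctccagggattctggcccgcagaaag
Rrm2: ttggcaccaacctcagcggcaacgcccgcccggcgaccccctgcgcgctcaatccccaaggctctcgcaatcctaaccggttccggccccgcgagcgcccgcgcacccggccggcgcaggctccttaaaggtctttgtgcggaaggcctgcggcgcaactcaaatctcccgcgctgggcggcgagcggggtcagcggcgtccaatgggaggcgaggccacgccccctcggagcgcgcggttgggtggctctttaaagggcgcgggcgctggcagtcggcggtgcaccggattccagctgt

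**Figure D3:**
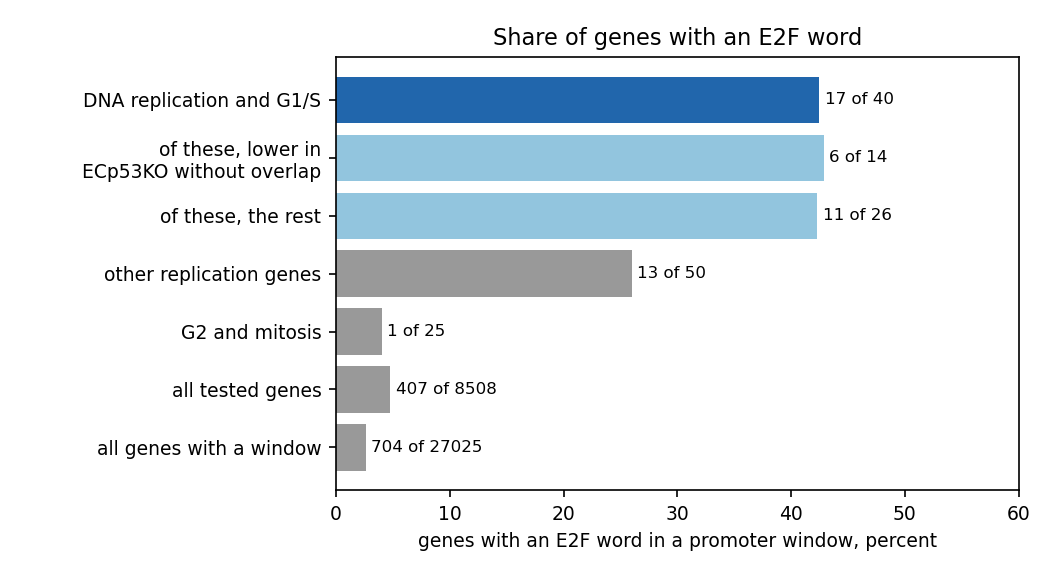
Share of genes, in percent on the horizontal axis, with at least 1 of the 4 E2F words in a promoter window; labels give the number of genes. The bars of the lower genes (6 of 14) and of the rest of the set (11 of 26) are of like length, and that of all genes with a window (704 of 27025) is short.

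Licensing genes overlapped between the groups where they were abundant. Of 16, 12 were tested, 6 with a negative and 6 with a positive difference (median -0.02, and 0.01 after quantile normalization), and 1, Gins2, lay lower without overlap (8.33%, against 16.8% of all tested genes). With 1 library left out, the licensing median lay between -0.23 (without ECp53KO_170) and 0.16 (without Ctrl_178). The helicase subunits Mcm2 to Mcm7 unwind the template. Mcm6 was the most abundant, at 27.8 and 24.8 in ECp53KO against 25.7 and 20.8 FPKM in Ctrl. Mcm3 stood at 16.5 and 14.5 against 16.8 and 11.7 FPKM. Mcm7 stood at 13.9 and 11 against 12.3 and 10.8 FPKM. For each of these, and for Mcm4 (10.0 and 6.63 against 8.21 and 6.83 FPKM), the libraries of the groups were interleaved.

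Mcm2 and Mcm5 showed a wide gap between the controls. Mcm2 stood at 5.73 and 4.31 FPKM in ECp53KO, 8.99 in Ctrl_178 and 3.26 in Ctrl_182. Mcm5 stood at 5.65 and 3.78 FPKM against 7.49 and 4.08 FPKM. In both genes Ctrl_178 was the highest library, and Ctrl_182 was near or below the ECp53KO libraries.

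Of the loading factors, Cdt1, Cdc6 and Orc1 were low. Cdt1, which brings Mcm to origins, stood at 2.29 and 1.60 FPKM against 6.02 and 1.60 FPKM (log2 difference -0.55 ± 0.50, SE; limma adjusted p = 0.872), and without Ctrl_178 its difference was 0.17. Its inhibitor geminin, encoded by Gmnn, stood at 8.32 and 3.51 against 5.48 and 7.96 FPKM, with both extremes in ECp53KO. Cdc6 stood at 0.602 and 0.259 against 0.960 and 0.601 FPKM. The origin recognition subunits Orc2 (5.47 to 6.69 FPKM) and Orc6 (12.1 to 14.7 FPKM) differed little between libraries, while Orc1 was listed at 0 and 0.0666 in ECp53KO against 0.211 and 0.162 FPKM in Ctrl. The Orc1 values stand for an estimated 0 to 11 fragments in a library.

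Helicase activators join Mcm to start unwinding, and the 4 listed here were low. Gins2 stood at 1.66 and 0.561 against 3.05 and 2.08 FPKM (log2 difference -0.79 ± 0.34, SE; limma adjusted p = 0.864). Its exons overlap those of Gse1 on the other strand over 67.3% of their bases, and Gse1 itself stood at 3.96 and 8.55 against 9.83 and 8.73 FPKM; its part in the Gins2 values was not tested. Cdc45 stood at 1.72 and 1.40 against 2.87 and 1.48 FPKM, and Gins1 at 1.29 and a listed 0 against 1.54 and 0.844 FPKM. Mcm10 was at 0.124 and a listed 0 in ECp53KO against 0.747 and 0.201 FPKM in Ctrl, an estimated 7, 0, 40 and 22 fragments.

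Polymerase and clamp genes held the only gene that lay higher. Of 12, 11 were tested, 4 negative and 7 positive (median 0.09, and -0.01 after rescaling to TPM), with 3 lower and 1 higher without overlap (27.3% and 9.09%, against 16.8% and 19.1% of all tested genes). Pcna stood at 119 and 93.8 in ECp53KO against 107 and 102 FPKM in Ctrl, so both controls lay between the ECp53KO libraries (107 ± 18.1 against 104 ± 3.70 FPKM, SD, n = 2 each). Pcna is also a known p53 target. The DNA polymerase subunits Pold1 (14.8 and 12.3 against 13.2 and 11.8 FPKM) and Pola1 (1.74 and 1.55 against 1.68 and 1.76 FPKM) and the primase Prim1 (8.39 and 6.33 against 6.44 and 7.11 FPKM) were interleaved too.

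The clamp loader, RFC, opens Pcna and closes it around DNA, and its 5 genes gave differences of either sign. Rfc4 stood at 6.92 and 7.12 in ECp53KO against 3.27 and 3.63 FPKM in Ctrl. Averaged by group, Rfc4 was at 7.02 ± 0.142 against 3.45 ± 0.257 FPKM (SD, n = 2 each), and the log2 difference was 0.85 ± 0.17 (SE; limma adjusted p = 0.864). Over the alternatives its difference lay between 0.73 and 1.01, and its limma adjusted p between 0.12 and 1. Rfc4 (chromosome 16, 23113948 to 23127730, GRCm38) shares 12.7% of its exon bases with Eif4a2, a translation factor gene on the other strand, which stood at 186 and 170 against 130 and 171 FPKM. The library keeps no strand, so reads of the shared stretch cannot be told apart, and their part in the Rfc4 values was not tested.

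The other RFC genes were less separated. Rfc1 was highest in ECp53KO_170, at 16.8 FPKM, and at 10.7 to 11 FPKM in the other 3 libraries. Rfc2 stood at 30.7 and 17.2 against 19.2 and 22.4 FPKM, with both extremes in ECp53KO. Rfc3 stood at 8.69 and 6.66 against 7.63 and 5.72 FPKM. Rfc5 lay lower without overlap, by a narrow margin, at 4 and 2.94 against 4 and 4.52 FPKM, where the rounded values hide the margin.

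Fen1 and Lig1, which help to finish the lagging strand, lay lower in both ECp53KO libraries. Fen1, the flap nuclease, stood at 4.38 and 2.02 FPKM against 5.21 and 5.65 FPKM (log2 difference -0.67 ± 0.32, SE; limma adjusted p = 0.864). Lig1, the ligase that seals the nicks, stood at 4.75 and 5.01 against 7.93 and 5.87 FPKM. Fen1 shares 78.8% of its exon bases with an antisense transcript on the other strand. Pole, the leading strand polymerase, was barely detected, at 0.0118 and 0.108 against 1.16 and 0.215 FPKM, with most of its signal in Ctrl_178.

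Nucleotide supply divided its 4 genes evenly. Rrm1 and Tyms overlapped between the groups, and Tk1 and Rrm2 did not (median of the 4 differences -0.52, and -0.25 without Ctrl_178). Lower without overlap were thus 2 of the 4 (50%, against 16.8% of all tested genes). Tk1, which salvages thymidine, stood at 1.29 and 1.90 in ECp53KO against 6.83 and 3.68 FPKM in Ctrl. Its ECp53KO mean was 1.60 ± 0.428 FPKM and its Ctrl mean 5.26 ± 2.22 FPKM (SD, n = 2 each), 3.29 times as high, and the log2 difference was -1.23 ± 0.32 (SE; limma adjusted p = 0.864). Rrm2, the subunit of ribonucleotide reductase that limits its activity in S phase, stood at 1.24 and 1.42 against 5.88 and 2.36 FPKM, 3.10 times as high in Ctrl (-1.05 ± 0.38, SE; limma adjusted p = 0.864). Means of Rrm2 were 1.33 ± 0.130 and 4.12 ± 2.49 FPKM (SD, n = 2 each). Ctrl_178 was the high library in both genes, and neither overlapped between the groups. Tk1 lies on chromosome 11, 117815519 to 117826087, and Rrm2 on chromosome 12, 24708254 to 24714146 (GRCm38). The partner of Rrm2, Rrm1, stood at 13 and 12.2 against 12.7 and 12.2 FPKM, with nearly equal means of 12.6 ± 0.613 and 12.5 ± 0.336 FPKM (SD, n = 2 each). Tyms, which makes thymidylate, stood at 3.94 and 2.52 against 3.51 and 2.28 FPKM.

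Without Ctrl_178 the differences of Tk1 and Rrm2 were -0.86 and -0.53, and without Ctrl_182 they were -1.60 and -1.56. Tk1 passed the test only with small RNA loci and Ctrl_182 both left out. That fit had Ctrl_178, the highest library for Tk1, as its only control, and the difference there was -1.60. Over the other alternatives Tk1 did not pass.

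Among E2F and cyclin genes 9 of 12 were tested, 7 negative and 2 positive, with a median of -0.28 (-0.08 without Ctrl_178). Of these, 3 lay lower without overlap (33.3%, against 16.8% of all tested genes). E2f1, an activating E2F that is itself an E2F target, stood at 0.940 and 1.36 in ECp53KO against 4.29 and 2.30 FPKM in Ctrl, 2.86 times as high in Ctrl (log2 difference -0.96 ± 0.31, SE; limma adjusted p = 0.864). Its means were 1.15 ± 0.3 and 3.30 ± 1.40 FPKM (SD, n = 2 each), and Ctrl_178 was again the highest library. E2f1 lies on chromosome 2, 154559400 to 154569892 (GRCm38). Its levels are an estimated 30 and 37 fragments against 129 and 143. E2f3, another activator, stood at 2.25 and 3.15 against 3.41 and 3.51 FPKM, lower without overlap by a narrow margin. E2f2 stood at 0.154 and 0.362 against 0.777 and 0.204 FPKM. E2f4, a repressor of resting cells, was the most abundant E2F gene, at 29.4 and 38.6 against 35.3 and 35.3 FPKM, with the controls between the ECp53KO libraries.

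Cdk2, which drives entry into S phase, stood at 14.7 and 16.2 in ECp53KO against 23.1 and 21.8 FPKM in Ctrl. Its ECp53KO mean was 15.4 ± 1.03 FPKM and its Ctrl mean 22.5 ± 0.967 FPKM (SD, n = 2 each), 1.45 times as high, and the gap within each group was small beside that between them. The log2 difference was -0.51 ± 0.15 (SE; limma adjusted p = 0.864), and it lay between -0.64 and -0.45 over the alternatives. Cdk2 lies on chromosome 10, 128697938 to 128705051 (GRCm38). Its E-type cyclins were low. Ccne1 stood at 0.279 and 0.320 against 0.581 and 0.165 FPKM, an estimated 6 and 6 fragments against 13 and 7. Ccne2 lay lower without overlap, at 0.375 and 0.354 against 0.902 and 0.651 FPKM, an estimated 13 and 10 fragments against 30 and 44.

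The D-type cyclins, which sense growth signals, were abundant and varied between the controls. Ccnd1 stood at 111 and 106 FPKM in ECp53KO, at 204 FPKM in Ctrl_178 and at 67.1 FPKM in Ctrl_182, so the controls lay on either side of the ECp53KO libraries. Ccnd3 stood at 90.1 and 105 against 143 and 103 FPKM. Ccnd2 stood at 19.6 and 25.2 against 23.5 and 16.2 FPKM. Their kinase Cdk4 stood at 84.8 and 73.1 against 86.9 and 55.9 FPKM, and the related kinase Cdk6 at 0.790 and 1.82 against 1.98 and 1.69 FPKM. Ctrl_178 was the highest library for Ccnd1, Ccnd3, Cdk4 and Cdk6, and Ctrl_182 the lowest for Ccnd1, Ccnd2 and Cdk4.

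Of the 7 chromatin and fork genes, 5 were tested, 4 negative and 1 positive, with a median of -0.65. Without Ctrl_178 the median was -0.18, with 3 negative and 2 positive differences. With all libraries, 2 lay lower without overlap (40%, against 16.8% of all tested genes). Chaf1a and Chaf1b encode the large and middle subunits of the chaperone that places histones on new DNA. Chaf1a stood at 1.39 and 1.17 in ECp53KO against 3.06 and 2.55 FPKM in Ctrl (log2 difference -0.74 ± 0.22, SE; limma adjusted p = 0.864). Chaf1b stood at 1.48 and 1.20 against 3.32 and 2.13 FPKM (-0.65 ± 0.26, SE; limma adjusted p = 0.864). The 2 control means were 2.19 and 2.03 times as high, and the groups overlapped in neither gene. For Chaf1a the means were 1.28 ± 0.152 and 2.81 ± 0.358 FPKM, and for Chaf1b 1.34 ± 0.192 and 2.72 ± 0.847 FPKM (SD, n = 2 each). Chaf1a lies on chromosome 17, 56040416 to 56068026 (GRCm38). Chaf1a shares 52.5% of its exon bases with Ubxn6 on the other strand, which stood at 56.4 and 44.8 against 46.6 and 47.6 FPKM.

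Uhrf1, which carries DNA methylation through replication, stood at 1.02 and 1.15 FPKM in ECp53KO, 4.55 in Ctrl_178 and 1.02 in Ctrl_182, so that a single control library was high. Clspn, a checkpoint mediator at the fork, stood at 0.204 and 0.137 against 0.852 and 0.475 FPKM, an estimated 12 and 7 fragments against 47 and 54. Dtl, part of the ligase that destroys Cdt1 at Pcna, stood at 0.142 and 0.0232 against 0.760 and 0.247 FPKM. Slbp, which binds histone mRNA (26.8 and 22.5 against 26.2 and 28.0 FPKM), and Tipin, a fork protection factor (21.7 and 15.7 against 16.0 and 13.7 FPKM), were abundant and overlapped.

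The highest library of a gene was often Ctrl_178. It was the highest library for 28 of the 51 genes, ECp53KO_170 for 14, Ctrl_182 for 5 and ECp53KO_172 for 4. Among the tested genes Ctrl_178 was highest for 18 of 41 (43.9%), against 23.6% of all tested genes, and after rescaling to TPM for 25 of 41 (61%, against 27.6%). It lay above Ctrl_182 in 38 of the 51 genes and in 28 of the 41 tested (68.3%), against 51.6% of all tested genes. The gap between the 2 controls was larger than the difference between the groups in 23 of the 41 tested genes (56.1%, against 51% of all tested genes). For the gap between the 2 ECp53KO libraries the count was 26 of 41 (63.4%, against 64% of all tested genes).

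Markers of other cells were set beside this. Macrophage and monocyte markers summed to 6.52 and 5.60 FPKM in ECp53KO, 9.72 in Ctrl_178 and 4.85 in Ctrl_182; Cd68 was the marker that stood out in Ctrl_178 (4.31 FPKM, and 0.307 to 1.08 elsewhere), Ptprc, the pan-leukocyte gene, was at most 0.108 FPKM, and Fcgr1 was listed at 0 throughout. The 8 lymphocyte markers summed to 0.0646 to 1.56 FPKM, with Cd3e and Nkg7 listed at 0 in every library. Erythroid markers summed to 222 FPKM in ECp53KO_170 and 15.3 to 35.8 FPKM in the others, and cardiomyocyte markers to 346 FPKM there and 168 to 187 FPKM in the others. Pericyte and smooth muscle markers summed to 153 and 127 against 83.5 and 104 FPKM, and fibroblast markers to 31.8 to 39.5 FPKM in all. The part of these cells in the values of the replication genes was not tested. In bulk RNA, fewer cycling cells and less of these transcripts per cell cannot be told apart.

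The other genes of the replication pathway gave differences of both signs. Of 60 further genes of origins, polymerases, single-strand binding, nucleotide metabolism and E2F partners, 49 were tested. By limma 0 passed after adjustment. At an unadjusted p under 0.05 there were 2 lower and 0 higher genes, beside shares of 2.82% and 1.97% over all tested genes. Without overlap, 10 lay lower and 12 higher (20.4% and 24.5%, near the 16.8% and 19.1% of all tested genes). Of the 10 lower genes, 4 averaged under 1 FPKM in ECp53KO and entered the test only through Ctrl. Their median difference was 0.07, and -0.03 after rescaling to TPM. The 2 were Asf1b, a histone chaperone that works with Chaf1 (0.467 and 0.737 against 2.31 and 1.98 FPKM; log2 difference -0.98 ± 0.25, SE; limma adjusted p = 0.864), and E2f7, a repressor that E2F and p53 both induce (1.42 and 1.56 against 2.83 and 2.91 FPKM; -0.64 ± 0.21, SE; limma adjusted p = 0.864). The 2 controls were close to each other in both genes. Asf1b is among the 4 genes that entered through Ctrl, so its difference is a description.

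Genes of G2 and mitosis, the later part of the same cycle, are given for comparison. Of 30, 24 were tested, 23 with a negative difference. Without overlap, 20 were lower and 0 higher, where 16.8% and 19.1% of all tested genes were. At an unadjusted limma p under 0.05, 15 were lower (2.82% of all tested genes), with 0 past adjustment. Of the 24, 1 averaged under 1 FPKM in ECp53KO and entered only through Ctrl. The median over the 24 was -0.83, and -0.59 without Ctrl_178. Mki67 stood at 1.11 and 1.31 against 6.63 and 2.83 FPKM, Ccna2 at 2.53 and 2.94 against 8.45 and 5.98 FPKM and Cdk1 at 1.87 and 1.73 against 6.03 and 3.74 FPKM. Ctrl_178 was the highest library for 29 of the 30. The difference between the lists was not tested.

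**Figure D4:**
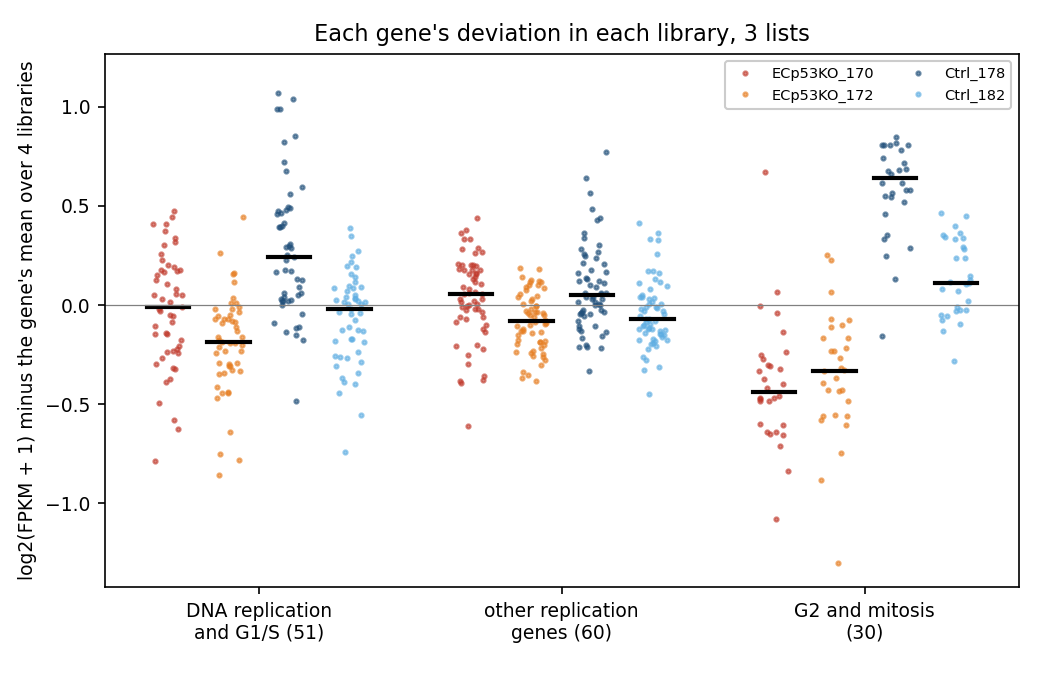
Deviation of each gene in each library from its own mean over the 4 libraries, on the log2(FPKM + 1) scale, for the 51 DNA replication and G1/S genes, 60 other replication genes and 30 genes of G2 and mitosis; black bars are medians. In Ctrl_178 the medians were 0.24, 0.05 and 0.64, and in Ctrl_182 -0.02, -0.07 and 0.11. In ECp53KO_170 they were -0.01, 0.06 and -0.44, and in ECp53KO_172 -0.19, -0.08 and -0.33.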

How the data were processed

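RNA was measured in 4 libraries of sorted heart endothelial cells, 2 labelled ECp53KO and 2 Ctrl. The kit was TruSeq, polyA-selecting and unstranded, with paired reads, per the labels' protocols. Cufflinks 2.2.1, TopHat2 2.1.0, Trimmomatic 0.36, FastQC 0.11.5, bcl2fastq 2.17 and the build mm10 are listed, without roles, per the submitters' processing notes. The authors deposited FPKM values, so count models do not apply. Depth was estimated from the smallest steps of 1037 low genes, assumed to be whole fragments. Fragment numbers given for low genes rest on that estimate and on the longest coding transcript (GENCODE M21). Small RNA loci hold 19.0% to 22.2% of the summed FPKM, and shares of FPKM move with them.

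Values were analysed as log2(FPKM + 1) by limma 3.58.1 (R 4.3.3, trend option on) for the 11332 genes averaging 1 FPKM or more. Tests were two-sided at 0.05 after Benjamini-Hochberg adjustment over all of them. Residual degrees of freedom were 2, and the prior gave 3.15 more. Exact permutation of 2 libraries against 2 has a smallest p of 0.333, so it was not used. The script was tested on simulated data. Symbols were matched to RefSeq GRCm38.p6, 23143 by symbol, 1085 by synonym and 118 not at all. Shared exon bases come from GENCODE M21. Exons of 22 of the 51 genes overlap those of a gene on the other strand. The largest shares beyond those given above were 29.8% for Orc2, 23.4% for Ccnd1, 19.7% for Cdk4, 17.4% for Ccne2 and 15.1% for Rfc2. By blastn, 9 of the genes (Ccnd3, Cdc6, Cdk6, Mcm7, Pcna, Rfc5, Rrm2, Slbp and Uhrf1) have pseudogene copies of at least 95% identity over 200 bases, so their values are uncertain by the way reads were divided. Promoter windows and their words come from RefSeq.

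The genes and lists were chosen with earlier results of these data known. Levels are given for all genes of the set. Differences, errors and p-values are given for those with an unadjusted limma p under 0.05 and otherwise for up to 2 per role with the smallest p. From the further replication genes, those with an unadjusted p under 0.05 are named. Alternatives were another pseudocount (0.1), other filters (0.25 FPKM or none), small RNA loci left out, rescaling to TPM, quantile normalization, robust shrinkage, removal of the trend with transcript length, and each library left out in turn, also together with the small RNA loci. A fit with Xist level as a term was added after the data were seen.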

Additional observations from a re-analysis of the deposited data

How the results depend on the processing

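No paired analysis was possible because ECp53KO and Ctrl have no replicate number in common. Each group has 1 library with high Xist, and a fit with Xist level as a term, added after the data were seen and leaving 1 residual degree of freedom, called 15 genes of all and 0 of the 41, with the same differences, of which 6 negative and 1 positive had an unadjusted p under 0.05. Over all tested genes, limma called 13 genes at an adjusted p under 0.05, 8 with no filter, 7 without small RNA loci, and 31 to 59 with a library left out (9 to 29 with small RNA loci also left out). Of the 41 replication and G1/S genes it called 0. Tk1 passed only without small RNA loci and Ctrl_182 together, where Ctrl_178 was the only control. The 5 genes lower at an unadjusted limma p under 0.05 were 8 without small RNA loci and 8 after rescaling to TPM. Over all tested genes the 319 became 403 of 11105 and 350 of 11332. The 1 higher gene became 1 to 4 with a library left out, most without ECp53KO_172, with or without small RNA loci. Higher genes also became more frequent over all tested genes without ECp53KO_172. That rise was therefore not particular to the set. The median of -0.11 ranged from -0.153 to 0.0359 with a library left out, and was positive without Ctrl_178 (0.0359) and without ECp53KO_172 (0.01). Genes lower without overlap numbered 11, 17 with no filter, and 13 to 23 with a library left out. Over all tested genes they numbered 1902 of 11332, 2893 of 16809 with no filter, and 3340 to 4046 with a library left out. The 1 higher without overlap became 2 after rescaling to TPM, 2 with the length trend removed, and 2 to 15 with a library left out. Over all tested genes the 2163 higher without overlap became 1234, 2209 and 3679 to 4812 in turn. Groups of 1 library overlap less by construction, and the lone library is assumed to vary like the others. Cdt1, at -0.55, ranged from -1.26 (without Ctrl_182) to 0.17 (without Ctrl_178), with or without small RNA loci. The cause was not tested in these cases except where fewer libraries or genes entered. Asf1b, Cdk2, Chaf1a, Chaf1b, E2f1, E2f7, Fen1, Gins2, Rfc4, Rrm2 and Tk1 kept their sign in each of the 18 settings, the reported one included. Depth limits the 10 genes under 1 FPKM, whose values rest on few fragments, and also some tested genes. In ECp53KO, Tk1 rests on an estimated 21 and 27 fragments, Rrm2 on 31 and 31 and Chaf1b on 32 and 23.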
